A study of Mus musculus with 8 samples.

Results

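A set of 10 MAPK phosphatases of the dual-specificity family, called DUSPs, was followed at the level of mRNA in serum-stimulated mouse fibroblasts with and without cordycepin. The set does not hold every phosphatase of MAP kinases. Other dual-specificity phosphatases, Dusp3 and Dusp9 among them, were kept in a separate list, and neither of these was called with cordycepin. The 10 genes were Dusp1, Dusp2, Dusp4, Dusp5, Dusp6, Dusp7, Dusp8, Dusp10, Dusp14 and Dusp16. Every non-control probe that carries 1 of these 10 gene names in the array design was taken, which gave 13 of 55681 probes. Dusp7, Dusp8 and Dusp16 have 2 probes each, and the other genes have 1. All 13 probes were well above background on all 8 arrays, and all 13 were among the 30857 probes tested.

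MAP kinases such as ERK, JNK and p38 are switched on when a threonine and a tyrosine in their activation loop are both phosphorylated. A MAPK phosphatase switches them off by removing both phosphates. Many of these phosphatases are themselves made in response to the signal that they terminate, which gives the pathway a negative feedback. In fibroblasts leaving starvation, serum growth factors activate ERK within minutes, and the genes of several nuclear phosphatases belong to the immediate early genes, which are transcribed without new protein synthesis.

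The cells were NIH3T3, an established line of mouse fibroblasts, and all samples had spent 24 h in medium with 0.5% newborn bovine serum. The cordycepin plus serum group (3 arrays) received 20 µM cordycepin, the adenosine analogue 3′-deoxyadenosine, in DMSO, and serum 60 min later, which made 90 min of cordycepin and 30 min of serum in all. That schedule is the one in the labels, whereas the paper's figure legend places the full 90 min of cordycepin before the serum. The serum group (3 arrays) received DMSO at 0.1% in place of cordycepin and the same serum, while the no serum group (2 arrays) was starved cells without added serum, which the protocol in the labels gives DMSO as well. Cordycepin was never given alone on these arrays, and all of them came from 1 cell line. The replicates are numbered, and the labels do not say whether they were separate cultures.

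Levels are given as normalised log2 signal, the log2 of the processed signal minus that array's 75th percentile, so 0 is the level of that percentile and a difference of 1 is a factor of 2. Levels are compared within a probe only, since probes differ in brightness. A call required both a limma adjusted p under 0.05 and a change of 1 log2 unit or more. Arrays differed in brightness, with a 75th percentile between 302 and 692, and detected 51.1 to 57.1% of all probes above background. All 10 fibroblast markers examined, among them Col1a1, Col1a2, Fn1 and Vim, were well above background on all 8 arrays. None of 6 epithelial markers was well above background on all 8, with Krt8 so on 7, Cldn4 on 2, Epcam on 1 and Cdh1, Krt18 and Krt19 on none. Of 5 endothelial markers, Pecam1 and Kdr were well above background on all 8 arrays and Cdh5, Tie1 and Emcn on none, and their summed level was 2.67 to 2.84 with cordycepin, 2.52 to 3.02 with serum and 2.62 to 2.89 without serum. Of 6 leukocyte markers, Cd68, Cd14 and Cd3e were well above background on all arrays, Ptprc on 3 and Lyz2 on 4. The summed level of the 6 was 3.19 to 3.51 on the cordycepin arrays, 1.35 to 1.55 on the serum arrays and 1.35 to 1.49 without serum. Cd68 ranged from −0.16 to 3.30 over the arrays. Of 4 skeletal muscle markers only Acta1 was well above background on all arrays, and their summed level was 3.03 to 3.47 with serum, 2.66 to 2.91 with cordycepin and serum, and 2.21 to 2.24 without serum. The part of these signals in the results was not tested. In bulk RNA, fewer cells that express a gene and less RNA per cell cannot be told apart.

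Whether cordycepin alters the phosphatase mRNAs of cells responding to serum was examined first. All 10 genes had a lower mean with cordycepin plus serum than with serum alone, where 39.2% of all probes tested did. Limma called 7 of the 10 lower. These were Dusp5, Dusp2, Dusp1, Dusp4, Dusp6, Dusp10 and Dusp8, with folds from 9.98 for Dusp5 to 2.16 for Dusp8. Over all 30857 probes, 2.99% were called lower and 7.56% higher, and over 13420 RefSeq mRNAs represented by their brightest probe, 2.58% were called lower. None of the 10 was called higher by limma, and at an unadjusted p under 0.05, 8 were lower and 0 higher. The share of all probes that passes the unadjusted rule was not computed, here or in the comparisons below. The median log2 fold change was −1.28 over the 10 genes and 0.055 over the 13420 mRNAs. The cordycepin arrays lay below all serum arrays for 9 of the 10 genes, with Dusp14 as the exception, and 13.9% of all probes tested had that order.

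**Figure D1:**
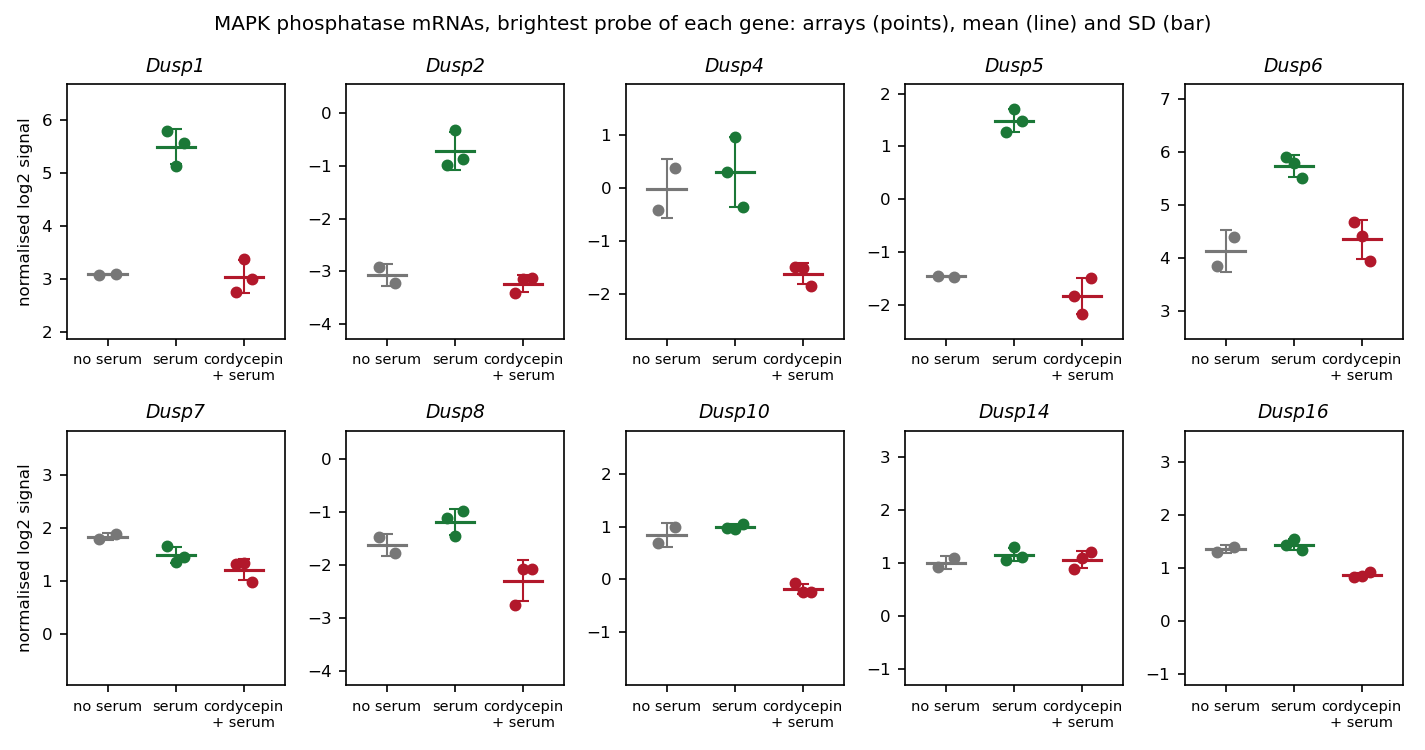
Normalised log2 signal (vertical axis) of the brightest probe of each MAPK phosphatase gene, with 1 point per array in the no serum (n = 2), serum (n = 3) and cordycepin plus serum (n = 3) groups, the mean as a line and the SD as a bar. Each panel spans the same number of log2 units. Dusp1, Dusp2, Dusp5 and Dusp6 stand high on the serum arrays only, Dusp4, Dusp8, Dusp10 and Dusp16 are lowest on the cordycepin arrays, and the groups of Dusp14 overlap.

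The nuclear phosphatases Dusp1, Dusp2, Dusp4 and Dusp5, held the 4 largest drops. Dusp5 encodes a nuclear phosphatase that acts on ERK and also holds it in the nucleus. Its probe lies on chromosome 19 at 53615682 to 53615741 (build mm9, plus strand) and starts at base 1024 of the transcript. Dusp5 was at −1.44 and −1.47 without serum, at 1.27, 1.72 and 1.48 with serum, and at −1.82, −2.18 and −1.49 with cordycepin and serum. The serum arrays thus stood apart from the other 5, and every cordycepin array was below both arrays without serum, the highest by a narrow margin. Dusp5 fell by 3.32 ± 0.19 (SE) with cordycepin (95% interval −3.76 to −2.88, limma adjusted p = 2.02e-05).

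Dusp1 encodes a nuclear phosphatase, also known as MKP-1, that acts on p38, JNK and ERK. Its probe is on chromosome 17 at 26642796 to 26642853 (minus strand, from base 1624 of the transcript). Dusp1 was at 3.08 and 3.09 without serum, at 5.78, 5.14 and 5.56 with serum, and at 2.76, 3.37 and 3.00 with cordycepin and serum. The cordycepin arrays lay on both sides of the arrays without serum, and all 3 were over 1 unit below the lowest serum array. Dusp1 was 5.48-fold lower with cordycepin (log2 fold change −2.45 ± 0.20, limma adjusted p = 9.93e-05).

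Dusp2 encodes a nuclear phosphatase best known from activated lymphocytes. Its probe is on chromosome 2 at 127163930 to 127163989 (plus strand, from base 1434). Dusp2 was at −2.92 and −3.22 without serum, at −0.99, −0.32 and −0.87 with serum, and at −3.42, −3.14 and −3.13 with cordycepin and serum. Serum arrays were again apart from all others, and the remaining groups overlapped. Dusp2 was 5.67-fold lower with cordycepin (log2 fold change −2.50 ± 0.19, limma adjusted p = 7.26e-05), which became −1.47 under normexp background correction, still called. Its processed signal was 28.3 to 56.4 on the cordycepin arrays and 268 to 325 on the serum arrays, before normalisation.

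Dusp4 encodes a nuclear phosphatase of ERK and JNK. Its probe is on chromosome 8 at 35882045 to 35882104 (plus strand, from base 1523). Dusp4 was at −0.42 and 0.37 without serum, at 0.30, 0.96 and −0.37 with serum, and at −1.49, −1.51 and −1.86 with cordycepin and serum. Here the serum and no serum arrays overlapped, and the cordycepin arrays were below all of them. Dusp4 was 3.78-fold lower with cordycepin (log2 fold change −1.92 ± 0.34, limma adjusted p = 0.00474). Its SD over the serum arrays was 0.66, the widest of the 10 genes.

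RefSeq start sites place the promoters of these genes in sequence that can be read for sites of serum-regulated factors. Windows from 250 bases before to 50 after the start site (RefSeq, build GRCm38.p6) were found for 9 of the 10 genes, with Dusp4 as the exception. The following runs are the 250 bases before the start site of Dusp1 (chr17:26508473-26508722, minus strand), Dusp2 (chr2:127335909-127336158, plus strand) and Dusp5 (chr19:53528895-53529144, plus strand), shown because these genes had the largest rise with serum and the largest drop with cordycepin, and of Dusp8 (chr7:142095285-142095534, minus strand), shown because it holds 2 copies of a site found in Dusp1. Capitals mark matches to the motifs searched.
Dusp1: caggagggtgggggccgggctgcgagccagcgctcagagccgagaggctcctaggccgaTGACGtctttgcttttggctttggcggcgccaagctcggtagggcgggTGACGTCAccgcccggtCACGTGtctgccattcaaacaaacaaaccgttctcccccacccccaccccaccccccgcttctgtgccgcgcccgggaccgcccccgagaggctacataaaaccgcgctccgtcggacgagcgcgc
Dusp2: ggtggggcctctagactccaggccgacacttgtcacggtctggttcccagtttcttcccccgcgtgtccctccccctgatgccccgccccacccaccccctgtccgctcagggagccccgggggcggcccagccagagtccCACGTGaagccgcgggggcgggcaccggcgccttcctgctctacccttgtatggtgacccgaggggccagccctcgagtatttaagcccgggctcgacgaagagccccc
Dusp5: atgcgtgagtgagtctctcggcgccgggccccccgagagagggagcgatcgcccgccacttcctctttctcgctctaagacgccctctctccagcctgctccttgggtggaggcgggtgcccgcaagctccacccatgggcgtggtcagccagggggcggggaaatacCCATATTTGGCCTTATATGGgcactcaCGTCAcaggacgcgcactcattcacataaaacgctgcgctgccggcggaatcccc
Dusp8: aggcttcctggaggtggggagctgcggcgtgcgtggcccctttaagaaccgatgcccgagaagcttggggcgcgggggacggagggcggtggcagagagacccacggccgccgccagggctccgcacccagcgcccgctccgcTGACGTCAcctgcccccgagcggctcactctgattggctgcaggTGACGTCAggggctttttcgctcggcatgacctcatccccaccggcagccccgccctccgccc

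The motifs were searched on both strands of each window of 300 bases. Dusp1 holds 1 full cyclic AMP response element (CRE, TGACGTCA) at −143 to −136, where −1 is the base before the start site. The CRE core TGACG, which lies within the full CRE on both strands, occurs once more in Dusp1 at −191 to −187. The full CRE was found in 1.79% of all 32851 windows. Dusp8 holds it in 2 places, at −107 to −100 and at −63 to −56, and 0.0396% of windows hold at least 2. Dusp5 holds 2 adjoining CArG boxes, the binding sequence of serum response factor, which read CCATATTTGG at −82 to −73 and CCTTATATGG at −72 to −63. A CArG box was found in 1.63% of windows, and at least 2 in 0.0183%. Dusp5 also has a CRE core at −55 to −51, as have Dusp16 at −70 to −66 and, past the start site, Dusp2 at 6 to 10. A CRE core was found in 20.8% of windows, within a full CRE or alone.

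An E-box (CACGTG) occurs in Dusp1 at −126 to −121 and in Dusp2 at −109 to −104, and 7.15% of windows hold it. The EGR core GCGTGGG was matched in Dusp14 at −59 to −53, and 5.04% of windows hold it. The AP-1 motif TGANTCA (7.81% of windows), the ETS motif CCGGAAG (8.86%) and the TATA box TATAAA (13.6%) were matched in none of the 9. The windows of Dusp6, Dusp7 and Dusp10 held no match to any of the 8 motifs. The GC content of the 250 bases before the start site was 56.4 to 77.2% over the 9 genes, where the median of all windows was 52.4%. The shares of all windows were not matched for GC content, on which the number of matches can depend. No binding was measured, so these are matches of letters only.

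**Figure D2:**
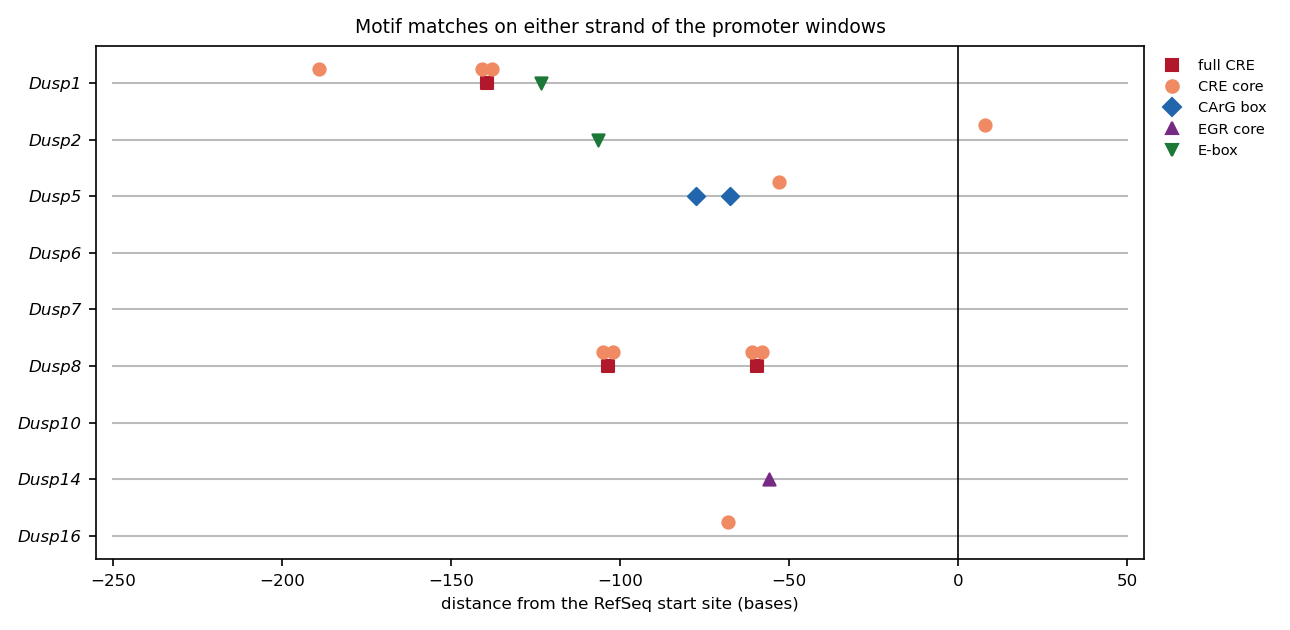
Matches to the motifs searched, on either strand, by distance in bases from the RefSeq start site (horizontal axis, negative before the start) in the windows of 9 MAPK phosphatase genes. Dusp8 has 2 full CREs and Dusp1 has 1, the 2 CArG boxes lie side by side in Dusp5, and Dusp6, Dusp7 and Dusp10 show none.

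The cytoplasmic phosphatases of ERK in the set, Dusp6 and Dusp7, differed from each other. Dusp6, also known as MKP-3, is a cytoplasmic feedback inhibitor whose mRNA follows ERK activity in many tissues. Its probe is on chromosome 10 at 98729985 to 98730044 (plus strand, from base 2658). Dusp6 was at 3.85 and 4.41 without serum, at 5.91, 5.80 and 5.52 with serum, and at 4.69, 4.43 and 3.96 with cordycepin and serum. All serum arrays were above all others, and the cordycepin arrays overlapped those without serum. Dusp6 was 2.61-fold lower with cordycepin (log2 fold change −1.38 ± 0.23, limma adjusted p = 0.00316). When arrays were centred on the spike-in controls, the log2 fold change was −1.46 with an adjusted p of 0.0509.

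Dusp7 encodes the closest relative of Dusp6. Its 2 probes lie on chromosome 9 (plus strand) at 106277985 to 106278044 and at 106277943 to 106278000 and share a run of 15 bases, acacatatatatccc, so they are not independent readings. On the brighter probe Dusp7 was at 1.78 and 1.88 without serum, at 1.66, 1.36 and 1.45 with serum, and at 1.32, 1.33 and 0.98 with cordycepin and serum. Levels were highest without serum and lowest with cordycepin and serum, with neighbouring groups separated by small gaps. Neither probe was called in this comparison, with log2 fold changes of −0.28 ± 0.14 (limma adjusted p = 0.215, 95% interval −0.60 to 0.040) and −0.39 ± 0.12 (limma adjusted p = 0.0516).

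Dusp8, Dusp10 and Dusp16 encode phosphatases that prefer JNK and p38 over ERK. The Dusp10 probe is on chromosome 1 at 185898608 to 185898667 (plus strand, from base 1804). Dusp10 was at 0.68 and 1.00 without serum, at 0.98, 0.96 and 1.04 with serum, and at −0.07, −0.23 and −0.23 with cordycepin and serum. The serum and no serum arrays overlapped, and the cordycepin arrays were below all of them. Dusp10 was 2.26-fold lower with cordycepin (log2 fold change −1.17 ± 0.12, limma adjusted p = 0.000265). Centring on the spike-in controls ended the call, with −1.25 and an adjusted p of 0.146.

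The brighter probe of Dusp8 is on chromosome 7 at 149267534 to 149267593 (minus strand, from base 2617). Dusp8 was at −1.48 and −1.78 without serum, at −1.12, −1.46 and −0.99 with serum, and at −2.75, −2.07 and −2.08 with cordycepin and serum. The cordycepin arrays were below all others. The log2 fold change was −1.11 ± 0.22 (limma adjusted p = 0.00783), and the call was lost under normexp (−0.61), with spike-in centring (adjusted p = 0.195) and without cordycepin replicate 1 (−0.88). The second probe, at 149265961 to 149266020 and from base 4190, was not called, with −0.82 ± 0.33 (limma adjusted p = 0.136) and groups that overlapped. It was at −3.90, −3.21 and −2.36 on the cordycepin arrays and was called only when replicate 3 of these was left out, at −1.22. Under normexp it was at −0.29 (limma adjusted p = 0.265).

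Dusp16 has a brighter probe on chromosome 6 at 134665783 to 134665842 (minus strand, from base 4755) and a dimmer one at 134668003 to 134668062 (from base 2535). On the brighter probe Dusp16 was at 1.30 and 1.41 without serum, at 1.45, 1.55 and 1.35 with serum, and at 0.84, 0.86 and 0.92 with cordycepin and serum. The cordycepin arrays were tightly grouped below all others. The drop of 1.49-fold (log2 fold change −0.57 ± 0.10, limma adjusted p = 0.00538) was under the fold required for a call. On the dimmer probe it was −0.82 ± 0.24 (limma adjusted p = 0.0488), which passed the fold required after quantile normalisation, at −1.10, and was −0.13 under normexp (adjusted p = 0.648).

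Dusp14 encodes a small atypical phosphatase without the domain by which the others dock to a kinase. Its probe is on chromosome 11 at 83861916 to 83861975 (minus strand, from base 1014). Dusp14 was at 0.92 and 1.09 without serum, at 1.06, 1.29 and 1.12 with serum, and at 0.89, 1.09 and 1.20 with cordycepin and serum. All 3 groups overlapped. The log2 fold change with cordycepin was −0.09 ± 0.13 (limma adjusted p = 0.658), and its 95% interval, −0.39 to 0.20, lay within the fold required for a call in either direction.

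Which of the phosphatases respond to serum was examined by comparing serum with no serum. Dusp5, Dusp1, Dusp2 and Dusp6 were called higher, 4 of 10 genes, where 0.878% of all probes tested were called higher and 0.898% lower. Over the 13420 mRNAs represented by their brightest probe, 0.894% were called higher and 0.0447% lower. None of the 10 was called lower by limma, and at an unadjusted p under 0.05 the counts were likewise 4 higher and 0 lower. Dusp5 rose 7.70-fold (log2 fold change 2.95 ± 0.21, limma adjusted p = 0.000516), Dusp1 5.31-fold (2.41 ± 0.23, adjusted p = 0.00168) and Dusp2 5.08-fold (2.34 ± 0.22, adjusted p = 0.00154). Dusp6 rose 3.05-fold (1.61 ± 0.25, limma adjusted p = 0.0173). For each of the 4, every serum array was above both arrays without serum. Leaving out serum replicate 1 ended the call of Dusp6 (adjusted p = 0.0561), as did leaving out no serum replicate 1 (adjusted p = 0.128), spike-in centring (adjusted p = 0.704) and testing all probes without a filter (adjusted p = 0.0836).

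The other 6 phosphatases were not called in the serum comparison. Dusp8 was higher on all serum arrays than on both arrays without serum, with a log2 fold change of 0.44 ± 0.24 (limma adjusted p = 0.707). Its second probe had 0.84 ± 0.37 (adjusted p = 0.51). Dusp7 was lower on all serum arrays, at −0.34 ± 0.16 on the brighter probe (limma adjusted p = 0.531). The wide interval of Dusp4, −0.55 to 1.19, included a change large enough to be called, while those of Dusp10 (−0.15 to 0.46), Dusp14 (−0.18 to 0.48) and the brighter probe of Dusp16 (−0.18 to 0.36) did not. The interval of the second Dusp16 probe, −0.17 to 1.07, did include one. Over all probes, 9.96% had every serum array above every array without serum and 13.1% the reverse.

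The level that cordycepin-treated cells kept in the presence of serum was compared with that of starved cells without serum. This comparison shares its arrays with both others, so its values are given side by side with them. Dusp4 and Dusp10 were called lower, 2 of 10 genes, where 3.08% of all probes tested were called lower and 6.46% higher. Over the 13420 mRNAs, 2.06% were called lower and 3.58% higher. Dusp4 was 3.03-fold lower (log2 fold change −1.60 ± 0.38, limma adjusted p = 0.0239) and Dusp10 2.03-fold lower (−1.02 ± 0.13, adjusted p = 0.00145). None was called higher by limma, and at an unadjusted p under 0.05, 5 were lower and 0 higher. Both calls were lost without cordycepin replicate 2 or 3 or without no serum replicate 2, where Dusp4 was at −1.65, −1.48 and −1.20 and Dusp10 at −0.99, −0.99 and −0.86. That of Dusp4 was also lost without cordycepin replicate 1 and with no filter on dim probes (limma adjusted p = 0.0734). That of Dusp10 was also lost under normexp, at −0.91, and with spike-in centring (adjusted p = 0.18).

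The 4 serum-induced phosphatases were not called in this comparison. The log2 fold change was −0.04 for Dusp1 (95% interval −0.57 to 0.48), −0.16 for Dusp2 (−0.66 to 0.34), −0.37 for Dusp5 (−0.86 to 0.11) and 0.23 for Dusp6 (−0.35 to 0.81). Each interval excluded the size of the gene's rise with serum alone. Dusp7 was lower on every cordycepin array than on both arrays without serum, at −0.62 ± 0.16 on the brighter probe (limma adjusted p = 0.0311) and −0.63 ± 0.13 on the other (adjusted p = 0.013), below the fold required. The brighter probe of Dusp16 had −0.48 ± 0.12 (limma adjusted p = 0.0256) and that of Dusp8 −0.67 ± 0.24 (adjusted p = 0.116). Their second probes had −0.36 ± 0.27 (limma adjusted p = 0.433) and 0.015 ± 0.37 (adjusted p = 0.986), with groups that overlapped. Over the brightest probes of the 10 genes, 6 had all cordycepin arrays below both arrays without serum, an order that 16.5% of all probes tested showed.

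**Figure D3:**
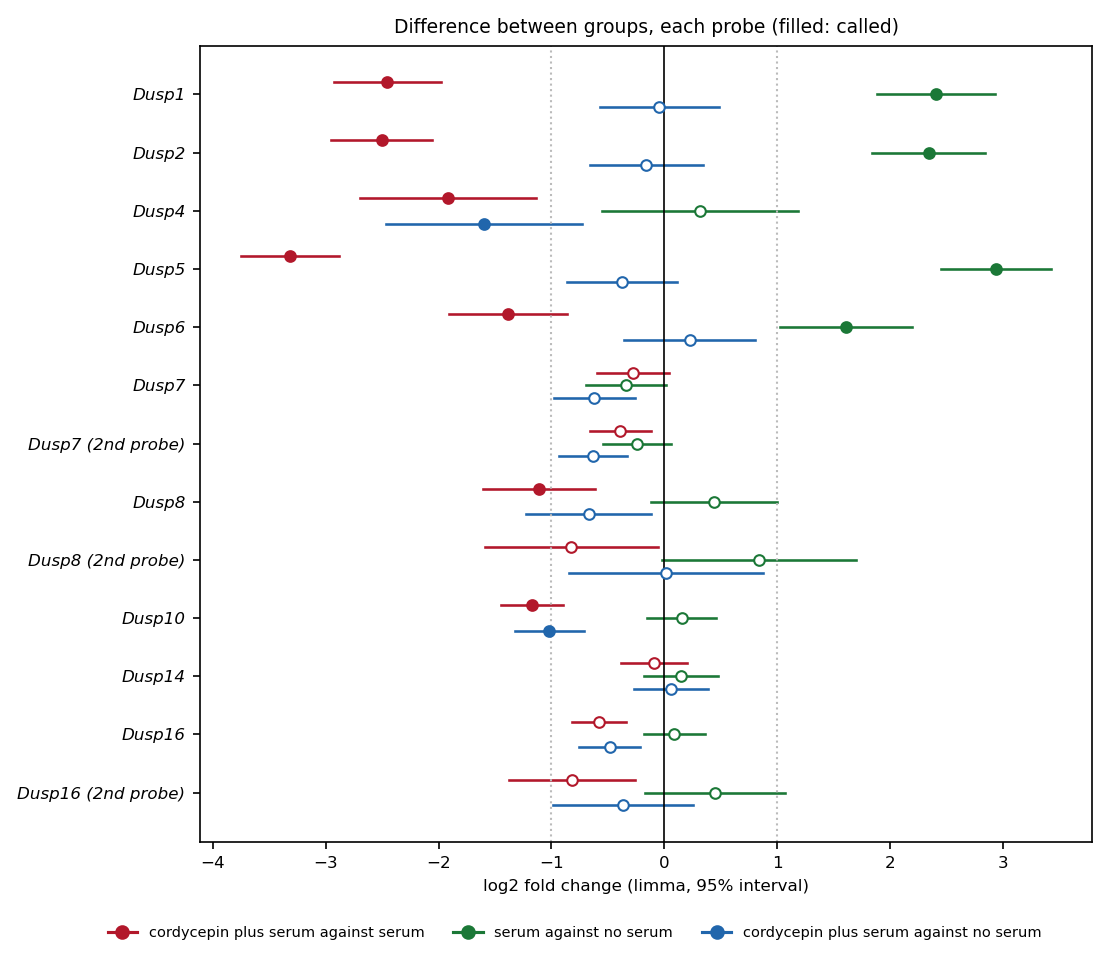
Log2 fold change (horizontal axis) of all 13 probes in the 3 comparisons, with the 95% interval from limma as a line and filled points for calls. Dotted lines mark the fold required. Dusp1, Dusp2, Dusp5 and Dusp6 lie at both sides far from 0 for the serum and the cordycepin comparison and near 0 for cordycepin plus serum against no serum, while Dusp4 and Dusp10 lie below 0 in the latter.

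The patterns closest to those of 3 members were listed over 13420 mRNAs, as a description. The points are 8 arrays in 3 groups, so any mRNA with similarly ordered group means scores high. Closest to Dusp5 were Plk3 (Pearson r = 0.996 over 8 arrays), Klf6 (0.992), Fbxo30 (0.991), Per1 (0.989) and Dusp2 (0.986). Closest to Dusp1 were Ptgs2 (r = 0.988), Taf7 (0.987), Zc3h12a (0.974), Btg2 (0.973) and Msantd1 (0.972). Among the closest to Dusp6 were Ereg (r = 0.989), Swt1 (0.988), Ccrn4l (0.986) and Ctgf (0.981).

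The substrates of the phosphatases and the other parts of the pathway were set beside them, with 1 probe per gene. Of 14 MAP kinase genes 11 were tested, and limma called none of them in any comparison. At an unadjusted p under 0.05, 0 passed in the cordycepin and the serum comparison and 1, higher, for cordycepin plus serum against no serum. The ERK gene Mapk3 had a log2 fold change with cordycepin of 0.18 ± 0.11 (limma adjusted p = 0.288), the p38 gene Mapk14 had 0.10 ± 0.11 (adjusted p = 0.578) and the JNK gene Mapk8 had 0.39 ± 0.37 (adjusted p = 0.514). The log2 fold changes of the 11 genes spanned −0.31 to 0.39 with cordycepin, a narrower range than the −3.32 to −0.09 of the 10 phosphatases.

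Among 23 tested kinases upstream of the MAP kinases, cordycepin gave 2 calls, both lower, where 2.58% of 13420 mRNAs were called lower. After quantile normalisation it gave 3. Map3k14, a kinase of the NF-kB pathway, was at 2.79, 2.88 and 2.80 with serum and at 0.38, 0.65 and 1.08 with cordycepin and serum (log2 fold change −2.12 ± 0.17, limma adjusted p = 8.85e-05). Map3k11, a kinase that activates JNK, had −1.72 ± 0.15 (adjusted p = 0.000113). Both were also called lower than without serum, at −2.08 ± 0.19 and −1.47 ± 0.16 (limma adjusted p = 0.000269 and 0.000682), as Dusp4 and Dusp10 were. In that comparison 2.06% of 13420 mRNAs were called lower. A second probe of Map3k14 was below the fold required in both comparisons, at −0.82 ± 0.12 and −0.89 ± 0.13 (limma adjusted p = 0.00162 and 0.00261). Map3k8, which feeds the ERK cascade, was the 1 member called higher with serum (1.64 ± 0.28, limma adjusted p = 0.0256), a call that was lost under normexp and with spike-in centring. Of the 13420 mRNAs, 0.894% were called higher with serum.

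Of 11 scaffolds, Mapk8ip2 was called higher with cordycepin plus serum than without serum (1.04 ± 0.25, limma adjusted p = 0.0272), where 3.58% of 13420 mRNAs were. No other scaffold was called in any comparison. The Mapk8ip2 probe was dim, well above background on 3 of 3 cordycepin arrays, 1 of 3 serum arrays and 1 of 2 no serum arrays. Its call was lost under normexp, quantile normalisation and spike-in centring. None of 10 kinases activated by MAP kinases and none of 7 tested phosphatases from other families, such as Ppp2ca and Ppm1d, was called by limma in any comparison, with medians of −0.01 and −0.20 for cordycepin. At an unadjusted p under 0.05, 3 of the former and 3 of the latter were lower and 0 of either higher with cordycepin. By that rule 6 upstream kinases were lower and 0 higher, and 1 scaffold was lower and 2 higher. Of the other dual-specificity phosphatases 3 were lower and 3 higher, and of the transcription factors below 3 were lower and 1 higher. Of 15 other dual-specificity phosphatases, Ssh2, which acts on cofilin, was called lower with cordycepin (−1.34 ± 0.14, limma adjusted p = 0.00029) and lower than without serum (−1.18 ± 0.16, adjusted p = 0.00148). Over the 13420 mRNAs, 2.58% and 2.06% were called lower in these comparisons. Dusp9 and Dusp3 of that list were not called in any comparison. With cordycepin they had 0.01 ± 0.11 and 0.04 ± 0.16 (limma adjusted p = 0.96 and 0.898). Spike-in centring ended both calls of Ssh2, and normexp ended the latter. After quantile normalisation 2 members of that list were called lower with cordycepin. Of 11 transcription factors that carry the serum signal, Srf was called higher with serum (1.42 ± 0.13, limma adjusted p = 0.00154), except with spike-in centring. The share of the 13420 mRNAs called higher with serum was 0.894%.

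**Figure D4:**
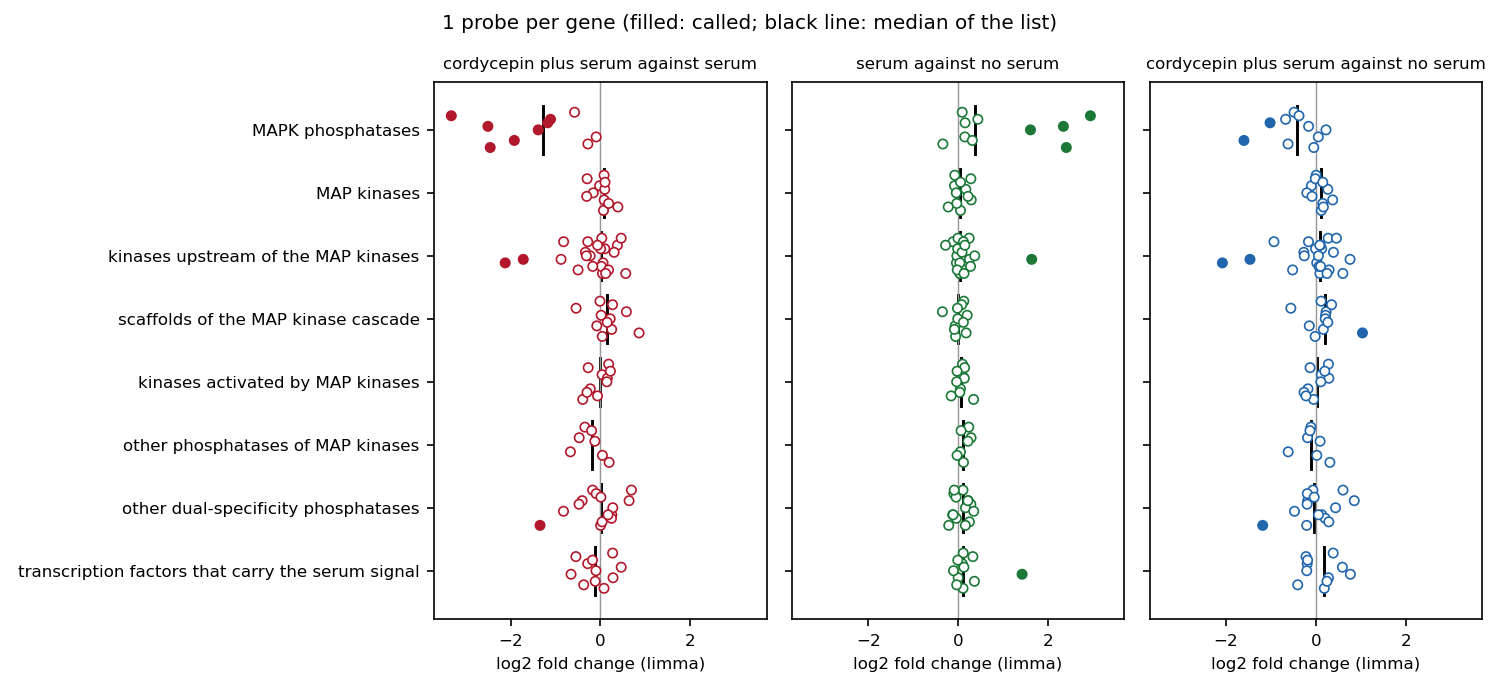
Log2 fold change (horizontal axis) of the MAPK phosphatases and of 7 other lists of MAPK pathway genes in each comparison, with 1 point per gene, filled where called, and the median of each list as a black line. The phosphatases spread from −3.32 to −0.09 with cordycepin, and the MAP kinases from −0.31 to 0.39.

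How far the values of the phosphatases depend on the processing was examined with 15 alternatives, of which 8 leave out 1 array each. In the cordycepin comparison no probe of the 10 genes changed its sign under any of them. Dusp1, Dusp2, Dusp4 and Dusp5 were called lower under all 15, and Dusp1, Dusp2 and Dusp5 were called higher with serum under all 15. Dusp5 ranged from −3.49 to −2.81 with cordycepin and from 2.62 to 3.05 with serum. The sign of Dusp4, Dusp10, Dusp14 and Dusp16 in the serum comparison did change in at least 1 alternative.

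**Figure D5:**
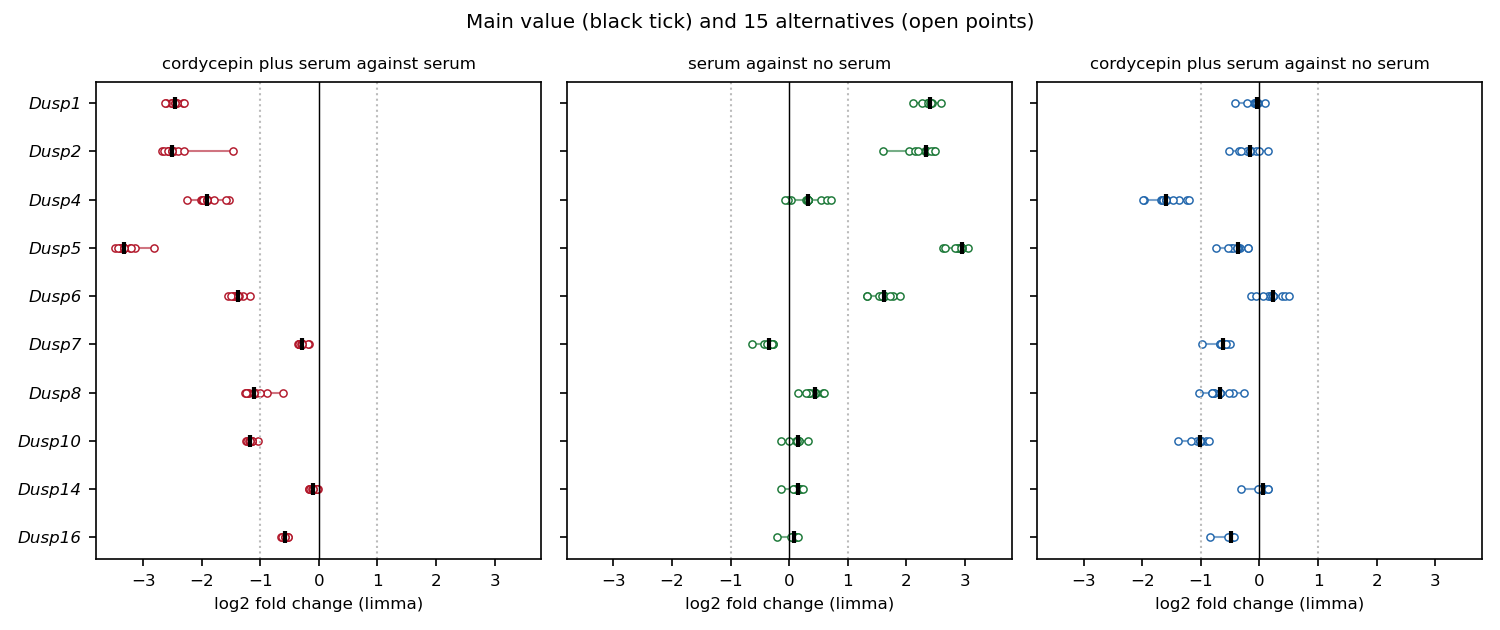
Log2 fold change (horizontal axis) of the brightest probe of each MAPK phosphatase gene as reported (black tick) and under 15 alternatives (open points), in each comparison, with dotted lines at the fold required. In the cordycepin comparison all points lie below 0, and those of Dusp5 between −3.49 and −2.81.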

How the data were processed

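RNA samples from NIH3T3 cells, 8 in all, were measured on 1-colour Agilent mouse arrays. The deposited files hold intensity per spot, which the authors extracted with Feature Extraction 10.7.3.1 (local background subtracted), with flags for outliers and for spots well above background. With 1 slide and 1 scan for all arrays, no test of slide or scan was possible, and the number of arrays limits the precision.

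Spots flagged as outliers were left out, log2 processed signals were averaged per probe, and the 75th percentile over non-control probes was subtracted from each array. A probe was kept if all arrays of any 1 group had it well above background, and kept probes were tested in limma 3.58.1 (R 4.3.3) with 1 mean per group and all 8 arrays sharing the spread. P-values were two-sided and adjusted over 30857 probes by the method of Benjamini and Hochberg. They measure the spread between these samples, which may be technical. A gene was represented by its brightest probe. On simulated data for the cordycepin comparison (30857 probes), 93 of 100 changes of 2 and 100 of 100 changes of 3 on the log2 scale were called, with 5 false calls. For serum against no serum these were 87 and 96, with 9 false calls. For cordycepin plus serum against no serum they were 88 and 98, with 4. Each simulation changed 200 probes and drew noise independently for each probe and array, while 3255 probes were called in the real cordycepin comparison. The false calls are thus not an error rate for the real arrays. Changes nearer the fold required for a call were not simulated.

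The genes named were all members, the called genes of each list (at most 4 per comparison), main substrates and the 5 closest patterns to 3 members. Dusp3 and Dusp9 were named in addition, with their values known. Certain genes that the rule names are not reported here. The members and lists were chosen with earlier results of these data known. Motifs were read in RefSeq windows (GRCm38.p6), while probe positions are mm9. The array files give no exon or UTR for a probe, and amino acid sequences were not used here. Alternatives are listed in the closing section.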

Additional observations from a re-analysis of the deposited data

How the results depend on the processing

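The number of phosphatase genes called, 7 in the cordycepin comparison, 4 in the serum comparison and 2 between cordycepin plus serum and no serum, was recomputed under each alternative. In the cordycepin comparison it was 4 after centring on spike-in probes, where larger errors came with similar fold changes, and 6 to 8 elsewhere. In the serum comparison it was 3 or 4. For cordycepin plus serum against no serum it was 1 under normexp, 1 under spike-in centring, 1 without a filter on dim probes and 4 without a minimum fold change, and it ranged from 0 to 2 when 1 array was left out, with 0 without cordycepin replicate 2 or 3 or no serum replicate 2. With the replicate block the counts were 7, 4 and 2, and with each array's slide row as a block, chosen after seeing the data, also 7, 4 and 2. Same-numbered arrays deviated from their group means with correlations of −0.17 to 0.23, so the numbers were not taken as pairs. Of the 195 values of single probes per comparison over all alternatives, 188, 185 and 171 kept direction and call.

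Signs changed only for values that were not called, and the cause was not tested. Against no serum, cordycepin plus serum gave 0.14 for Dusp2 and 0.17 for the second Dusp16 probe under normexp, and −0.17 under quantile normalisation and −0.23 with the replicate block for the second Dusp8 probe. Under spike-in centring the same comparison gave −0.14 for Dusp6, −0.35 for the second Dusp8 probe and −0.31 for Dusp14, and the serum comparison gave −0.13 for Dusp10, −0.14 for Dusp14 and −0.20 for Dusp16. That centring moved the median of all probes to −0.30 in the serum comparison and −0.29 between cordycepin plus serum and no serum. Leaving out 1 array, the serum comparison ranged from −0.079 to 0.71 for Dusp4 and from −0.0028 to 0.31 for Dusp10. Cordycepin plus serum against no serum ranged from −0.21 to 0.096 for Dusp1, −0.051 to 0.50 for Dusp6, −0.38 to 0.39 for the second Dusp8 probe, −0.031 to 0.14 for Dusp14 and −0.74 to 0.012 for the second Dusp16 probe.

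Over all probes, cordycepin gave 2333 higher and 922 lower calls, against 891 and 408 under normexp, 1583 and 495 under spike-in centring, 1102 and 718 for probes above background on all 8 arrays and 3614 and 2379 without a minimum fold. The serum comparison had 271 higher and 277 lower, against 174 and 58 under normexp, 62 and 155 under spike-in centring, 135 and 91 without a filter and 400 and 606 by unadjusted p. Cordycepin plus serum against no serum had 1994 higher and 949 lower, against 1036 and 349 under normexp and 1727 and 1245 under quantile normalisation. Its counts over all probes under the other alternatives, no minimum fold among them, are not given here. With 2 arrays in the no serum group, leaving out either leaves 1 that is assumed to vary like the other groups.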

Other observations

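Srf, the factor that binds CArG boxes such as the pair upstream of Dusp5, has a second probe on the array, and it differed from the brighter one in the cordycepin comparison. Both probes were called higher with serum, at 1.42 ± 0.13 on the brighter and 1.69 ± 0.25 on the second (limma adjusted p = 0.00154 and 0.0139). With cordycepin the brighter probe had −0.65 ± 0.12 (limma adjusted p = 0.00525), below the fold required, and the second was called lower at −2.45 ± 0.22 (adjusted p = 0.000152). The difference between the probes was not tested.

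Creb1, which encodes a factor that binds the CRE, gave probes in opposite directions. The brightest had −0.28 ± 0.14 with cordycepin (limma adjusted p = 0.219), while another was called higher at 3.82 ± 0.14 (adjusted p = 6.18e-06) and at 3.45 ± 0.15 against no serum (adjusted p = 2.24e-05). These probes were singled out after their values were seen, and why they differ was not tested.

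Among the slingshot phosphatases, the relatives of the MAPK phosphatases that act on cofilin, Ssh1 had −0.82 with cordycepin (limma adjusted p = 0.0174) and Ssh3 had 0.64 (adjusted p = 0.0308), both below the fold required, beside the drop of Ssh2. A second probe of Ssh2 was called lower as well, at −1.87 ± 0.54 (limma adjusted p = 0.0455).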
